A study of Rattus norvegicus with 20 samples.

Results

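The comparison described here is the average effect of a low-iron diet over 2 brain regions of the rat. It is called the shared diet effect below, a name that does not mean that the regions agree for a given gene. All 20 of the 20 libraries of the series entered it: 10 from rats given a low-iron diet and 10 from rats given the standard AIN-93G diet, with region as a covariate, so that each value is 1 diet difference estimated over both regions at once. The rats were male Fischer344/Jcl animals, an inbred laboratory strain, and the diets were given from 21 to 39 days of age. Tissue was taken at 13 weeks, long after the diets had ended, from the nucleus accumbens and the prefrontal cortex. Each of the 4 groups, one for each region and diet, held 5 libraries of poly(A) RNA. The labels name no individual rats: replicates may or may not be separate animals, and the cortex and accumbens may or may not come from the same ones. The p-values therefore reflect sample-to-sample spread only, some of which may be technical.

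Iron enters brain cells bound to transferrin through the transferrin receptor, is stored in ferritin and leaves cells through the exporter ferroportin. It is a cofactor of the respiratory chain, of heme and iron-sulfur proteins, of tyrosine hydroxylase in dopamine synthesis and of enzymes that build myelin. When iron is short, iron regulatory proteins bind messenger RNAs, which stabilises the transferrin receptor message and holds back ferritin translation. The title of the series names reelin, a secreted glycoprotein that signals through lipoprotein receptors to the adaptor encoded by Dab1.

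Reads assigned to genes ranged from 4.34 to 12.97 M per library, and 11788 of 18288 RefSeq accessions were abundant enough to be tested. Low-iron libraries differed by -1.52 M assigned reads on average (low-iron minus standard) in an exact two-sided permutation test within region (p = 0.0731, adjusted p = 0.256 over 7 library measures). By region, low-iron libraries held 4.34 to 5.93 M in the accumbens (standard diet 5.48 to 8.86 M) and 5.81 to 11.4 M in the cortex (standard diet 8.29 to 12.97 M). They also had reads on fewer accessions (low-iron minus standard, -186; exact permutation p = 0.00822, adjusted p = 0.0575). The tissue labels held for summed marker levels: markers of D1 and D2 striatal projection neurons lay between 2112 and 3451 CPM (read counts scaled to library size with TMM factors, a level within a gene that is not corrected for transcript length) in the accumbens against 453 to 547 CPM in the cortex. Markers of cortical glutamatergic neurons lay between 2700 and 4872 CPM in the cortex against 476 to 997 CPM in the accumbens. A pair of standard-diet libraries stood apart. In cortex standard replicate 4, the 14 meninges and fibroblast markers summed to 9078 CPM, against 340 to 2336 CPM in the other cortex libraries, and the cortical glutamatergic markers were lowest there, at 2700 CPM. In accumbens standard replicate 4 the cortical glutamatergic markers were highest for that region, at 997 CPM. The main values that rest on these libraries are given with and without them. Leaving out both number 4 standard-diet libraries was an alternative added after the data were seen.

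A single gene passed the test of the shared diet effect. Gk, which encodes glycerol kinase, the enzyme that turns glycerol into glycerol 3-phosphate and so links free glycerol to lipid synthesis and glycolysis, rose with the low-iron diet. It lies on chromosome X of rn6, per the authors' deposited tables. In the accumbens the 5 low-iron libraries stood at 35.9, 33.0, 31.7, 35.4 and 33.8 CPM, and the 5 standard-diet libraries at 26.1, 26.5, 27.1, 28.4 and 26.9 CPM. In that region every low-iron library lay above every standard-diet library. In the cortex the low-iron libraries stood at 22.3, 22.7, 23.6, 23.5 and 23.1 CPM, and the standard-diet libraries at 19.2, 18.7, 19.1, 22.9 and 19.8 CPM. There the diets overlapped only through cortex standard replicate 4, at 22.9 CPM, the same library that held the high meninges markers. Between 130 and 254 reads per library supported these levels. The shared difference was 1.21-fold (95% interval 1.13 to 1.29), 0.27 in log2 units (SE 0.045), and edgeR's adjusted p was 0.0447. Within regions the log2 fold change was 0.34 (SE 0.067) in the accumbens and 0.19 (SE 0.076) in the cortex, and edgeR's test of the difference between regions gave an unadjusted p of 0.182.

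**Figure D1:**
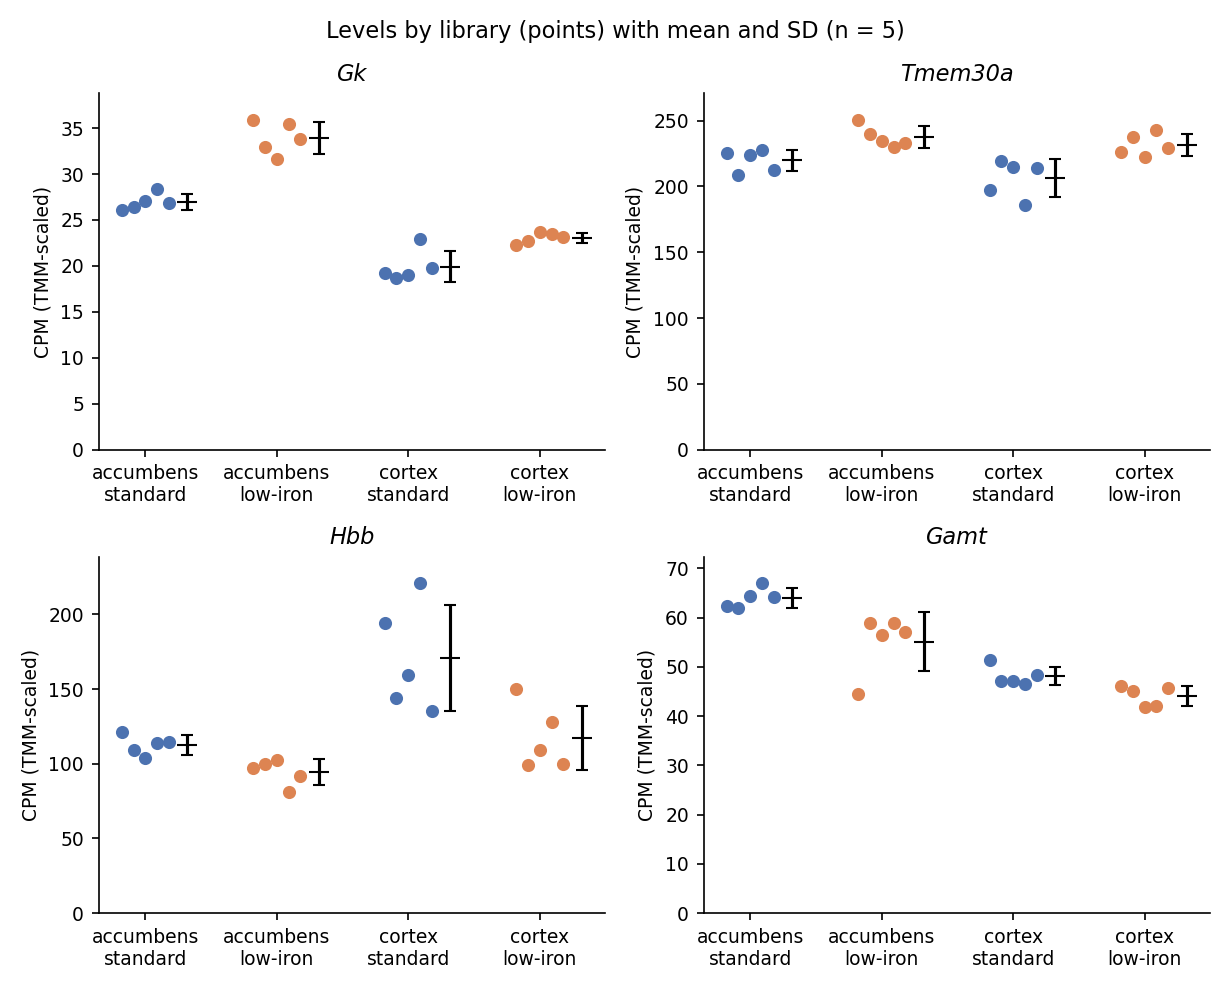
Levels of Gk, Tmem30a, Hbb and Gamt in each of the 20 libraries, in CPM (vertical axes from 0), by region and diet (blue standard, orange low-iron); the bar beside each group is its mean with the SD of 5 libraries. Gk is higher in all 5 low-iron accumbens libraries, and in the cortex 1 standard-diet library, at 22.9 CPM, reaches the low-iron level.

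The Gk call was close to the threshold and depended on which libraries were used. It passed when cortex standard replicate 4 was left out, with an edgeR adjusted p of 0.00212 and a log2 fold change of 0.30. It did not pass when any 1 of the other 19 libraries was left out, with adjusted p between 0.0555 and 0.185, although Gk kept the lowest p of all accessions in each of these 20 fits and its log2 fold change stayed between 0.26 and 0.30. DESeq2 and limma-voom also called it, with adjusted p of 0.0160 and 0.0237. With the depth of each library as a covariate the log2 fold change was 0.24 and the adjusted p 0.385.

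**Figure D2:**
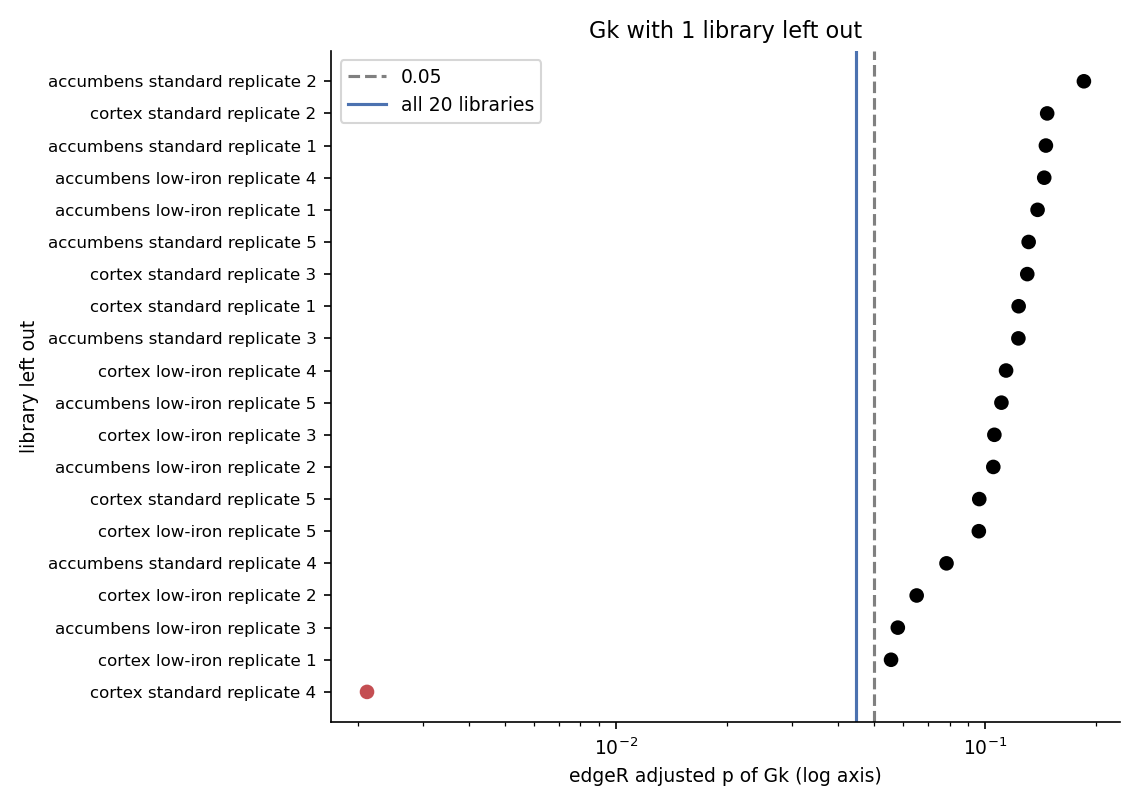
Adjusted p of Gk in edgeR's test (horizontal log axis) with each library named on the vertical axis left out in turn; the blue line is the value with all 20 libraries and the dashed line is 0.05. Only the point for cortex standard replicate 4 (red), at 0.00212, lies left of the dashed line; the other 19 lie between 0.0555 and 0.185.

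The 250 bases upstream of the Gk start are shown because Gk is the gene that passed, beside those of Hbb, the gene with the lowest p among those lower with the low-iron diet. Both are RefSeq sequences of GRCr8, 5′ to 3′ on the minus strand, at chrX:54189732-54189981 for Gk and chr1:167663722-167663971 for Hbb. Capitals mark the GC box (GGGCGG), the CCAAT box (CCAAT) and CACCC, searched on both strands.
Gk: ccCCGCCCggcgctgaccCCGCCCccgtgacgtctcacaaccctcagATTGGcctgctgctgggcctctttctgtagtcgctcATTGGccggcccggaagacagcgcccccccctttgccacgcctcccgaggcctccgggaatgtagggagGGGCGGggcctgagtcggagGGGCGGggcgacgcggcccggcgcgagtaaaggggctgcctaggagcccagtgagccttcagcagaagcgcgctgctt
Hbb: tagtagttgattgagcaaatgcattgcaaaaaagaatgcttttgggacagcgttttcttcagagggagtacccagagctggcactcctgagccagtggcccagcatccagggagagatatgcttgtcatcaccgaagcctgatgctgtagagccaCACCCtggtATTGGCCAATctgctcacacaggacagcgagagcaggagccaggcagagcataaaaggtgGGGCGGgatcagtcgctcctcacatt
The Gk sequence held the GC box at 4 places, the nearest 78 bases before the start (position -78), and the CCAAT box at 2 places, with no match to CACCC. The Hbb sequence held the GC box once, the CCAAT box at 2 places, and CACCC once, the element known from globin promoters. No matches overlapped in these 2 sequences. Neither window held the letters TATAAA. Of the 27457 promoters in the same table, 32.4% held the GC box, 34.3% the CCAAT box, 49.4% the CACCC element and 13.1% a TATA box of these letters in the same window.

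Over all accessions the shared differences were small. At an edgeR adjusted p under 0.05 there was 1 call (Gk, 0.00848% of 11788), and at an unadjusted p under 0.05 there were 838 (7.11%), of which 415 (3.52%) were higher and 423 (3.59%) lower with the low-iron diet. The median absolute log2 fold change was 0.056, beside a median SE of 0.068. Only 48 accessions (0.407%) differed by at least 2-fold and 777 (6.59%) by at least 1.2-fold. Within regions edgeR called 0 of 11202 accessions in the accumbens (454, or 4.05%, at an unadjusted p under 0.05) and 0 of 11662 in the cortex (699, or 5.99%), and 0 for the interaction of diet and region. The direction of the difference was the same in both regions for 5691 of the 11073 accessions tested in each (51.4%). An unadjusted p under 0.05 in each region with the same direction was reached by 20 accessions (0.181%), 7 higher and 13 lower, and with opposite directions by 3 (0.0271%). Given the regional shares of 4.05% and 5.99%, about as many over both directions together are expected by chance. The split by direction was not tested. Of the 20, the higher ones included Gk, Tmem30a, Grik2, Fam8a1, Lgi1 and Zdhhc2. The lower ones included Hbb, Alpl, Gamt, Fbn1, Txn1, C4b, Ramp2, Rpl36 and the class I histocompatibility genes RT1-A2 and RT1-S3. Lgi1 encodes a secreted synaptic protein and Zdhhc2 an enzyme that attaches palmitate to synaptic scaffolds. Lgi1, Zdhhc2, RT1-A2 and RT1-S3 were named after their values were seen, and none of these genes other than Gk passed the shared test after adjustment.

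**Figure D3:**
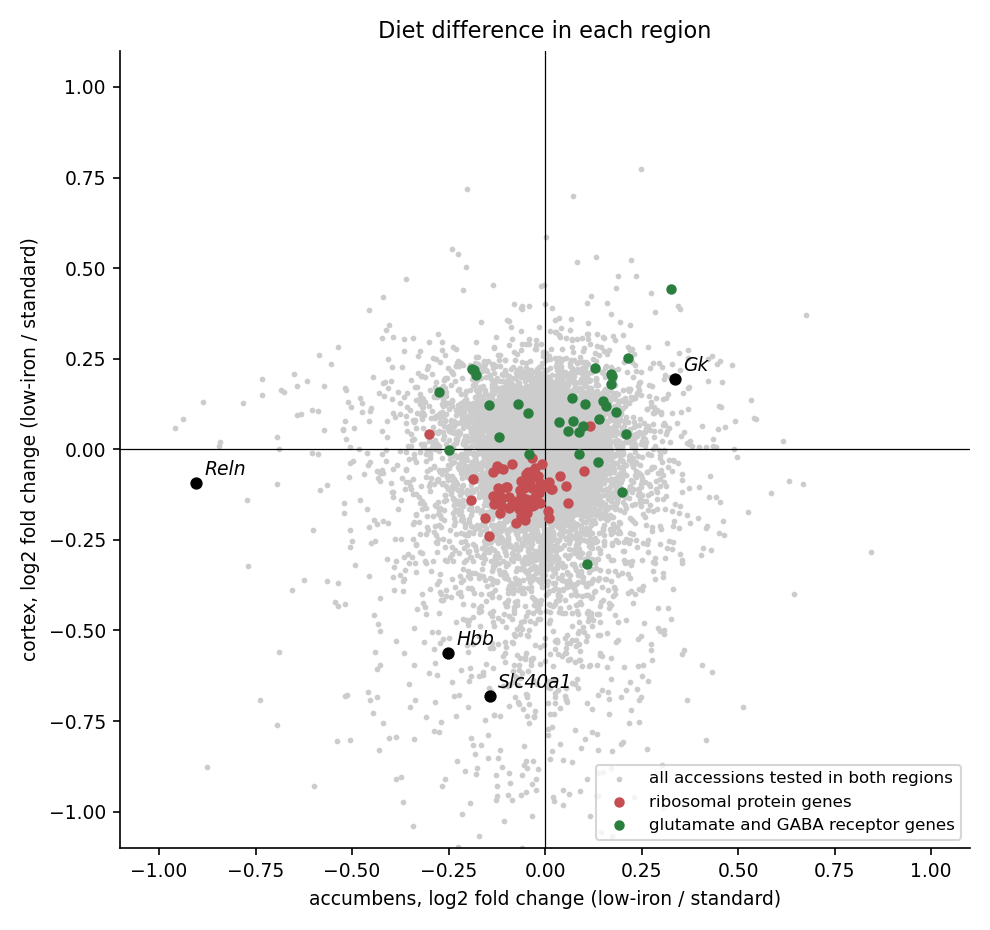
Log2 fold change of low-iron over standard diet in the accumbens (horizontal) and the cortex (vertical), 1 point for each of 11073 accessions tested in both regions (grey), with ribosomal protein genes in red, glutamate and GABA receptor genes in green and 4 named genes in black; 82 accessions lie beyond the axes. The grey points show no common diagonal (51.4% share a sign), most red points sit in the lower left of the plot and Gk in the upper right.

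The diets did not overlap for 112 of 11788 accessions in the accumbens (0.95%) and for 147 in the cortex (1.25%). In 2 genes (0.017%) the diets were fully separate in both regions and in the same direction; none were separate in opposite directions. Tmem30a encodes the partner subunit that lipid flippases need to leave the endoplasmic reticulum. Its low-iron libraries stood at 251, 240, 234, 230 and 233 CPM in the accumbens and 226, 237, 222, 243 and 229 CPM in the cortex. The standard-diet libraries stood at 225, 209, 224, 227 and 213 CPM and at 197, 220, 215, 186 and 214 CPM. All 10 low-iron libraries thus lay above those of their region, by 0.14 in log2 units (SE 0.034, edgeR adjusted p = 0.695), but with CPM taken from total assigned reads, without TMM factors, the diets were no longer separate in both regions for Tmem30a. Gamt encodes the methyltransferase of the last step of creatine synthesis. Its low-iron libraries stood at 44.6, 58.9, 56.4, 58.8 and 57.1 CPM in the accumbens and 46.1, 45.1, 41.8, 42.1 and 45.6 CPM in the cortex. The standard-diet libraries stood at 62.3, 61.9, 64.4, 66.9 and 64.2 CPM and at 51.3, 47.2, 47.2, 46.6 and 48.3 CPM. All 10 low-iron libraries lay below those of their region, and accumbens low-iron replicate 1 was far below the other 4. The shared log2 fold change of Gamt was -0.17 (SE 0.045, edgeR adjusted p = 0.695).

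The other genes with the lowest p among those higher with the low-iron diet had log2 fold changes of 0.13 to 0.26, each with an edgeR adjusted p of 0.695. Nap1l1, a histone chaperone, stood at 0.14 (SE 0.035) and was fully separate in the accumbens, at 317 to 351 CPM against 281 to 305 CPM. In the cortex its low-iron libraries spanned 238 to 289 CPM, which takes in the standard-diet range of 239 to 253 CPM. Grik2, a kainate receptor subunit, stood at 0.18 (SE 0.046), with nearly equal differences of 0.17 in the accumbens and 0.18 in the cortex. Bmt2, which senses S-adenosylmethionine for the mTORC1 pathway, stood at 0.26 (SE 0.069) and Afg1l, a mitochondrial ATPase, at 0.24 (SE 0.067). Bmt2 was fully separate in the cortex alone, at 16.4 to 18.4 CPM against 12.3 to 15.4 CPM, and Afg1l in the accumbens alone, at 13.9 to 15.8 CPM against 11.98 to 13.3 CPM. The homeobox gene Adnp2 (0.17), the splicing gene Sde2 (0.14), the chromatin adaptor gene Wac (0.13) and Fam8a1 (0.13), of the machinery that clears misfolded proteins from the endoplasmic reticulum, overlapped in both regions.

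Among the genes lower with the low-iron diet, Hbb had the lowest p. Hbb encodes beta-globin, the hemoglobin chain of red cells, which is also transcribed at low levels in some neurons. In the accumbens the low-iron libraries stood at 97.2, 100.1, 102.6, 81.3 and 91.8 CPM and the standard-diet libraries at 121, 109, 104, 114 and 114 CPM. In the cortex they stood at 150, 99.0, 109, 128 and 100.1 CPM against 194, 144, 160, 221 and 135 CPM. The diets were separate in the accumbens and overlapped in the cortex through low-iron replicate 1, and the highest Hbb of all was in cortex standard replicate 4. The log2 fold change was -0.40 (SE 0.093, edgeR adjusted p = 0.695), or 0.755-fold (95% interval 0.660 to 0.864), and DESeq2's adjusted p was 0.0741. Without cortex standard replicate 4 the log2 fold change was -0.35. Between 418 and 2178 reads per library fell on Hbb, while the near-identical copies Hbb-b1 and Hbb-bs had 0 reads and the alpha-globin accessions at most 1, so reads of other globin copies may have been given to Hbb or dropped. Alas2, the erythroid enzyme that starts heme synthesis, stood at -0.29 (SE 0.15). The blood content of the tissue was not tested.

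Several of the remaining lower genes are known from vessels, connective tissue and immune cells, and some rested on cortex standard replicate 4. Alpl, the alkaline phosphatase of brain endothelium, stood at -0.34 (SE 0.084), and at -0.27 without that library. Fbn1, which encodes the fibril protein fibrillin-1, was at 30.8 CPM in that library against 12.02 to 13.4 CPM in the other 4 of its group. The shared log2 fold change of Fbn1 was -0.57 (SE 0.16), and -0.36 without it. Msx1, a homeobox gene, stood at -0.62 (-0.42 without it), the complement gene C4b at -0.77 (-0.56) and Cd40, a receptor of the tumour necrosis factor family, at -0.85 (-0.64). C4b and Cd40 were counted at 3 to 64 reads per library, so their SE was wide, at 0.22 and 0.25. Msx1 and Cd40 were too low to be tested in the accumbens alone. There Msx1 had 4 to 7 reads in low-iron and 7 to 14 in standard-diet libraries, and Cd40 3 to 7 and 8 to 16. Ramp2, which helps form the adrenomedullin receptor, stood at -0.26 (-0.20 without it). For Mrps28, a mitochondrial ribosomal protein gene at -0.35 (SE 0.096), and Txn1, the thioredoxin gene at -0.18 (SE 0.049), leaving out that library changed little, with -0.36 and -0.18. Mrps28 was fully separate in the accumbens, at 5.06 to 8.03 CPM against 8.24 to 10.7 CPM. None of these passed after adjustment (edgeR adjusted p = 0.695 for each).

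Of 17 tested genes of iron uptake, storage and export, none passed after adjustment. Without adjustment 1 was higher and 3 were lower at p under 0.05, where the background is 3.52% and 3.59%. The list's median log2 fold change lay between -0.04 and -0.01 over the 20 fits that leave out 1 library, against 0.0064 over all accessions. Tfrc, the transferrin receptor that carries iron into cells, stood at 162, 149, 156, 167 and 214 CPM in low-iron accumbens libraries and at 134, 148, 159, 144 and 165 CPM in standard-diet ones. In the cortex it stood at 176, 144, 189, 191 and 165 CPM against 145, 158, 145, 170 and 172 CPM. The diets overlapped in both regions, and the shared log2 fold change was 0.15 (SE 0.063, unadjusted p = 0.0226, edgeR adjusted p = 0.695). With depth as a covariate the log2 fold change of Tfrc was 0.07, at an unadjusted p of 0.259. The divalent metal transporter gene Slc11a2 was at 0.06 (SE 0.038) and the serum carrier gene Tf at -0.15 (SE 0.099). For storage, the ferritin light chain gene Ftl1 was at -0.13 (SE 0.048, unadjusted p = 0.0113), with ranges of 117 to 141 CPM against 127 to 142 CPM in the accumbens and 100.45 to 116 CPM against 107 to 136 CPM in the cortex. The fit with depth as a covariate put Ftl1 at -0.19 (edgeR unadjusted p = 0.00118). The ferritin heavy chain gene Fth1 was at -0.02 (SE 0.047). Slc40a1, which encodes the exporter ferroportin, differed between regions in its values: in the cortex the low-iron libraries stood at 2.33, 2.45, 3.27, 2.11 and 2.46 CPM, all below the standard-diet libraries at 3.65, 3.93, 3.96, 3.69 and 4.59 CPM. In the accumbens they stood at 3.18, 3.07, 4.12, 4.01 and 3.95 CPM against 3.35, 3.54, 3.97, 3.33 and 5.99 CPM, which overlapped. Its shared log2 fold change was -0.41 (SE 0.14, unadjusted p = 0.00549), beside -0.68 in the cortex and -0.14 in the accumbens, on 16 to 49 reads per library. The test of the difference between regions gave an unadjusted p of 0.0513 for Slc40a1. Its shared log2 fold change was -0.56 with depth as a covariate (edgeR unadjusted p = 0.000779). The iron regulatory protein genes Aco1 (0.03) and Ireb2 (0.05) and the regulator Fbxl5 (0.06) had SE of 0.032, 0.070 and 0.039.

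Of 27 tested genes of heme synthesis and breakdown and iron-sulfur cluster assembly, 18 lay below 0, where 46.5% of all accessions did. With depth as a covariate, however, only 10 lay below 0 and 17 above 0. The median was -0.02, and 0.015 with depth as a covariate. Ppox, which makes the last porphyrin precursor of heme, was at -0.11 (SE 0.053) and Urod, an earlier step, at -0.08 (SE 0.040). Fech, which inserts iron into heme, was at -0.0032 (SE 0.038), and the heme oxygenase gene Hmox1 at -0.07 (SE 0.086). In the respiratory chain 46 of 57 nuclear subunit genes lay below 0, with members between -0.11 and 0.10. Only 1 was lower at an unadjusted p under 0.05, a share below the background of 3.59%, and 6 were without cortex standard replicate 4. Over all accessions 637 reached that p without that library, in either direction, against 838 with all 20 libraries. Over the 20 fits that leave out 1 library, 37 to 50 of the 57 lay below 0 and the median was between -0.045 and -0.019; with depth as a covariate 38 lay below 0. In ATP synthase 13 of 14 lay below 0, with a median of -0.05, led by Atp5me (-0.17) and Atp5f1e (-0.12). With depth as a covariate 10 of these 14 lay below 0. In the fits by region their median was -0.09 in the accumbens and -0.02 in the cortex, and 8 lay below 0 in both. Of 14 dopamine system genes 9 lay above 0, with a median between 0.02 and 0.11 over the fits that leave out 1 library. The vesicular monoamine transporter gene Slc18a2 was at 0.20 (SE 0.067). Th, the iron-dependent enzyme of dopamine synthesis, was at -0.90 (SE 0.35, unadjusted p = 0.0177) from the shared fit. Cortex standard replicate 4 held 19.4 CPM of Th, against a mean of 7.08 CPM in its group, a mean that this library itself raises. Without that library the log2 fold change of Th was -0.35 (edgeR unadjusted p = 0.0478). Th was too low to be tested in the accumbens.

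Genes of the cytosolic ribosome, whose proteins build both of its subunits, lay slightly lower with the low-iron diet almost throughout. Of 71 tested members, 69 lay below 0, with a median log2 fold change of -0.08 against 0.0064 over all 11788 accessions, of which 46.5% lay below 0. At an unadjusted p under 0.05 there were 27 lower and 0 higher, or 38.0% of members beside the background of 3.59%; none passed after adjustment. The difference was below 0 in both regions for 60 of 71 (84.5%), against 25.2% of all accessions, with medians of -0.05 in the accumbens and -0.11 in the cortex. Rpl36 had the lowest p, at -0.17 (SE 0.048), followed by Rpl10 at -0.10 (SE 0.032). The 2 members above 0 were Rpl8 (0.10) and Rpl39 (0.03).

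Each library was then described by the mean deviation of these 71 genes from the average of its region, in log2 CPM. In the cortex the low-iron libraries lay at -0.04, -0.08, -0.03, -0.09 and -0.01 and the standard-diet libraries at 0.12, -0.0069, 0.06, 0.05 and 0.02, so that the diets did not overlap. In the accumbens the low-iron libraries lay at -0.15, -0.09, 0.18, -0.11 and 0.01, against -0.02 to 0.09 in the standard-diet libraries. Accumbens low-iron replicate 3 was thus the highest of its region while 3 of the other 4 were the lowest. Left out, it gave 43 members lower at an unadjusted p under 0.05. Over all accessions 992 reached that p in that fit, in either direction, against 838 with all 20 libraries. Leaving out accumbens low-iron replicate 1 or cortex standard replicate 1 gave 17 members in each case, with 611 and 778 over all accessions. Leaving out any 1 of the 20 libraries left 66 to 70 members below 0 and a median of -0.11 to -0.06. Assigned reads were also lower on average in the low-iron libraries, with ranges that overlapped in both regions (exact permutation p = 0.0731, as given above). With depth as a covariate 70 of 71 lay below 0, with a median of -0.11. Fewer cells of one type and less RNA per cell cannot be told apart in bulk tissue.

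**Figure D4:**
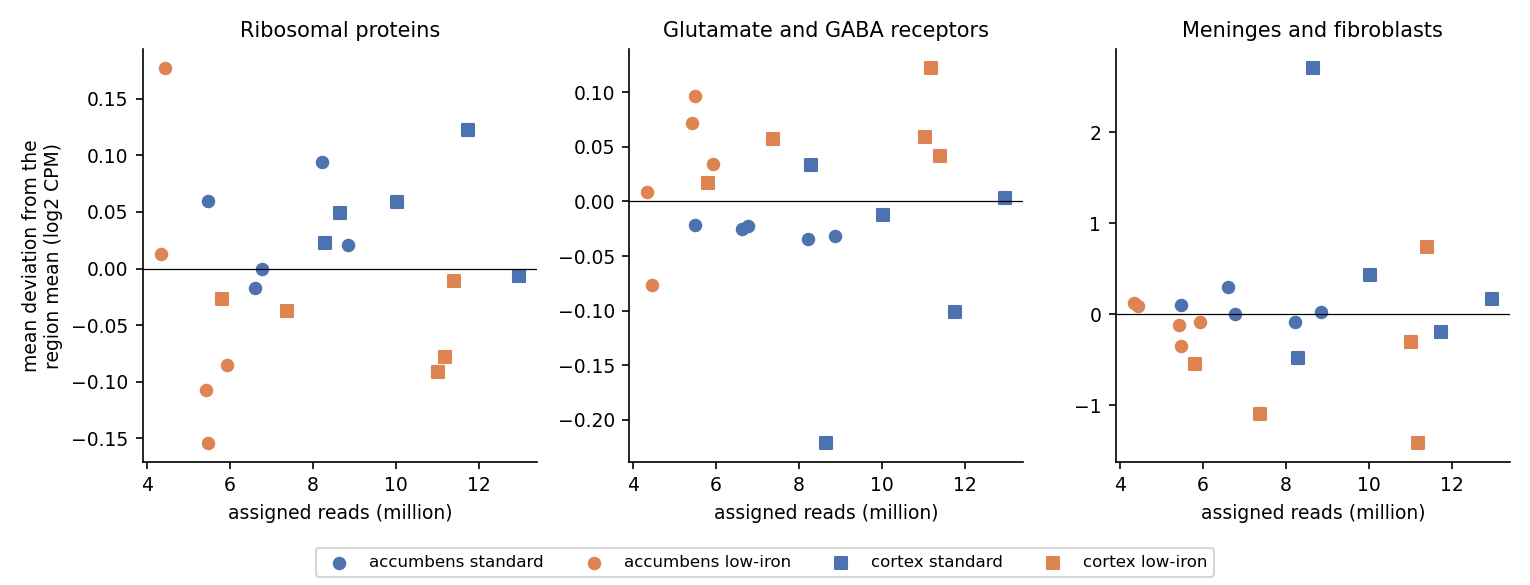
Mean deviation of 3 gene lists from the mean of the 10 libraries of the region (vertical, log2 CPM, separate scales) against assigned reads in M (horizontal), 1 point for each library (circles accumbens, squares cortex; blue standard, orange low-iron). Ribosomal protein genes lie below the region mean in the low-iron libraries except for accumbens low-iron replicates 3 and 5, at 0.18 and 0.01, and the meninges markers are set apart by cortex standard replicate 4, at 2.71.

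The bases around the starts of the 6 ribosomal protein genes with the lowest p are shown because vertebrate ribosomal messages are known to begin with a run of C and T, the terminal oligopyrimidine tract that ties their translation to mTOR. Beyond Rpl36 and Rpl10 these genes were named after their values were seen. Each sequence is from RefSeq, GRCr8, 5′ to 3′, and spans 40 bases before and 20 from the start. Positions are chr9:1533740-1533799 (plus strand) for Rpl36, chrX:157205810-157205869 (plus) for Rpl10, chr1:105325230-105325289 (plus) for Rpl18, chr1:92770618-92770677 (plus) for Rps16, chr2:173827023-173827082 (minus) for Rps3a and chr7:15311314-15311373 (minus) for Rps28. Capitals mark the run of C and T that holds the tract, searched as a C followed by at least 4 further C or T and beginning within 5 bases of the start.
Rpl36: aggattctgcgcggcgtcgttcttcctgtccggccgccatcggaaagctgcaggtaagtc
Rpl10: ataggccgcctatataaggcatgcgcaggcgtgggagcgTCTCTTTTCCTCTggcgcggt
Rpl18: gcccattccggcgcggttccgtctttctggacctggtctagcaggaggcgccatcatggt
Rps16: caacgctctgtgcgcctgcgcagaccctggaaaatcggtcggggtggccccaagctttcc
Rps3a: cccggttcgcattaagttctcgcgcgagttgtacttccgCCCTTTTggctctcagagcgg
Rps28: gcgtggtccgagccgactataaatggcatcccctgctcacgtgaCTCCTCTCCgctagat
Such a tract was found at the annotated start of Rpl10, Rps3a and Rps28 and not within 5 bases of it for Rpl36, Rpl18 and Rps16. Promoters were matched for 54 of the 71 ribosomal protein genes, and 35 of them (64.8%) held the tract, against 4656 of all 27457 promoters (17.0%). The match describes the annotated start alone.

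The genes of glutamate and GABA receptors lay mostly the other way. Of 32 tested, 28 had log2 fold changes above 0, with a median of 0.08, and 6 were higher and 0 lower at an unadjusted p under 0.05 (background 3.52% higher); none passed after adjustment. In both regions 18 of 32 lay above 0 (56.3%, against 26.2% of all accessions). Grik2 (0.18), described above, had the lowest p. Others with an unadjusted p under 0.05, named after their values were seen, included Gabra4 (0.20) and Gabra2 (0.15), of GABA-A receptors. The NMDA receptor subunit genes Grin2a (0.19, SE 0.12) and Grin2b (0.13, SE 0.067) and the AMPA receptor subunit gene Gria2 (0.12, SE 0.075) had wider errors. The mean deviation of the list lay at 0.10, 0.03, -0.08, 0.07 and 0.0084 in low-iron accumbens libraries and between -0.03 and -0.02 in the standard-diet ones. Replicate 3, the library with the highest ribosomal level, was the lowest of its region. In the cortex the low-iron libraries lay between 0.02 and 0.12 and the standard-diet libraries between -0.22 and 0.03, the lowest being replicate 4. Without cortex standard replicate 4, 26 of 32 lay above 0, the median was 0.07 and 4 were higher at an unadjusted p under 0.05; 4 were also found without accumbens low-iron replicate 1 or accumbens standard replicate 5. Over all accessions 637, 611 and 757 reached that p in these fits, in either direction, against 838 with all 20 libraries. Without both number 4 standard-diet libraries 2 of 32 were higher at that p, with 27 above 0 and a median of 0.07. In that fit 597 of all accessions reached it, in either direction.

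No marker of another cell type passed after adjustment, and the part of these markers in the results above was not tested. Their counts stand beside 46.5% of all accessions below 0 and 3.59% lower at an unadjusted p under 0.05. Endothelial and mural cell markers, which tell of blood vessels, lay below 0 in 18 of 19 cases, with a median of -0.19 and 7 lower at an unadjusted p under 0.05. The tight junction gene Cldn5 was at -0.16 (SE 0.062) and the angiopoietin receptor gene Tek at -0.20 (SE 0.077). The summed level of these markers ran from 655 to 889 CPM in low-iron and 738 to 867 CPM in standard-diet accumbens libraries, and from 641 to 781 against 714 to 1252 CPM in the cortex. The list's median was -0.08 in the accumbens and -0.35 in the cortex, and without cortex standard replicate 4 it was -0.15, with 18 of 19 still below 0. Leaving out cortex low-iron replicate 1, cortex low-iron replicate 2 or cortex standard replicate 3 gave 4 members lower at an unadjusted p under 0.05, and leaving out accumbens low-iron replicate 5 gave 11. Over all accessions 671, 733, 786 and 942 reached that p in these fits, in the order given and in either direction. Blood-brain barrier transporters, a list that shares Slc40a1 and Tfrc with the iron list, lay below 0 in 12 of 19 cases, with a median of -0.07 (-0.13 with depth as a covariate, and 14 below 0). By region the median was 0.02 in the accumbens and -0.13 in the cortex, and 7 of 18 lay below 0 in both. At an unadjusted p under 0.05, 4 were lower and 1 was higher. The drug efflux pump gene Abcg2 was at -0.25 (SE 0.091).

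All 14 meninges and fibroblast markers tested lay below 0, with a median of -1.11, but this rested on 1 library. Without cortex standard replicate 4 the median was -0.27, with 13 of 14 below 0 and none with an unadjusted p under 0.05, where 7 had been (0 to 10 over the fits that leave out 1 library). Over all accessions 637 reached that p without that library, against 838 with it. In the accumbens, which that library does not enter, the median was -0.17.

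Oligodendrocyte and myelin markers lay below 0 in 15 of 16 cases, and in 11 to 15 when 1 library was left out, with a median between -0.12 and -0.04. They were led by the myelin protein gene Pllp (-0.12, SE 0.048) and the myelin lipid enzyme gene Fa2h (-0.17, SE 0.087). Their summed level overlapped widely between the diets, at 5946 to 7618 CPM in low-iron and 5429 to 8193 CPM in standard-diet accumbens libraries. Astrocyte markers lay below 0 in 10 of 14 cases, with a median between -0.07 and -0.02 when 1 library was left out. Microglia markers lay below 0 in 12 of 18 cases, with a median between -0.07 and -0.0072 in the same fits. By region their median was 0.05 in the accumbens and -0.10 in the cortex. At an unadjusted p under 0.05, 1 member was higher and 1 lower. The lower one was C1qc, a chain of the complement protein C1q, at -0.12 (SE 0.051), and the higher one Cx3cr1, at 0.15.

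Markers of D1 and D2 projection neurons lay above 0 in 10 of 12 cases (median 0.13, and 0.24 with depth as a covariate), and those of striatal projection neurons as a class in 16 of 17 (median 0.12). The latter median was 0.06 without accumbens standard replicate 3 and 0.08 without accumbens standard replicate 5. The prodynorphin gene Pdyn, which encodes an opioid peptide precursor of D1 neurons, was at 0.26 (SE 0.12). Their summed level overlapped between the diets in the accumbens, at 2296 to 3289 CPM against 2112 to 3451 CPM. Cholinergic neuron markers lay below 0 in 10 of 11 cases (median -0.29), a value that moved with single libraries. It was -0.07 without accumbens standard replicate 3, -0.11 without accumbens standard replicate 5, -0.19 without accumbens low-iron replicate 1, -0.43 without accumbens standard replicate 2, -0.47 without accumbens low-iron replicate 4 and -0.15 with depth as a covariate. Of 15 circadian clock genes 13 lay above 0, and 11 to 13 when 1 library was left out, led by Bhlhe40 (0.19, SE 0.087) and Tef (0.12, SE 0.057).

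**Figure D5:**
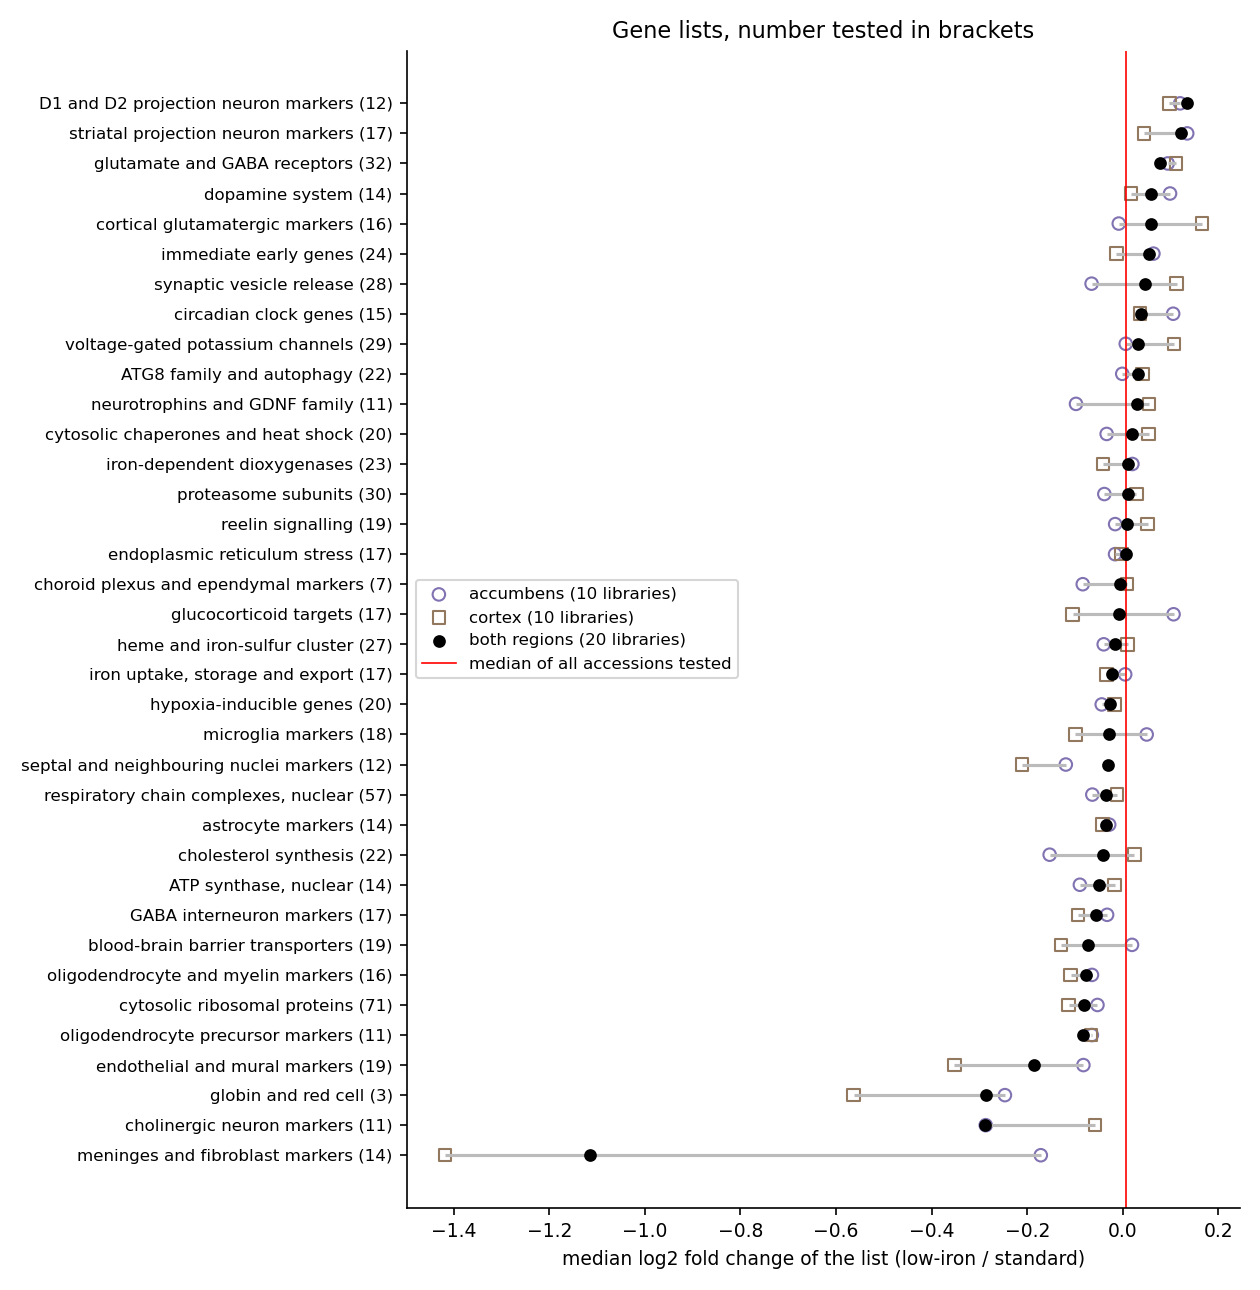
Median log2 fold change (horizontal) of each of 36 gene lists (vertical, number of genes tested in brackets), in both regions together (filled circles), in the accumbens (open circles) and in the cortex (open squares); the red line is the median of all accessions tested, 0.0064. Most lists lie close to the red line; the meninges and fibroblast list, at -1.11 from both regions, reaches its value through 1 cortex library.

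Reln, the reelin gene, did not pass the shared test. In the accumbens its low-iron libraries stood at 17.9, 24.4, 17.1, 24.3 and 14.3 CPM, all below the standard-diet libraries at 34.8, 28.2, 39.3, 52.2 and 32.5 CPM. In the cortex they stood at 231, 267, 240, 248 and 213 CPM against 215, 243, 209, 361 and 236 CPM. The cortex diets overlapped, and cortex standard replicate 4, at 361 CPM, was far above the rest. The shared log2 fold change was -0.38 (SE 0.15, unadjusted p = 0.0214, edgeR adjusted p = 0.695), beside -0.90 in the accumbens and -0.09 in the cortex, and it was -0.27 without cortex standard replicate 4 (unadjusted p = 0.0905). Without both number 4 standard-diet libraries it was -0.20 (unadjusted p = 0.130). The 2 regional differences of Reln differed from each other in edgeR's interaction test at an unadjusted p of 0.00365, which did not pass after adjustment. An exact two-sided permutation test of Reln alone, with diets exchanged within each region, gave a mean difference of -0.49 log2 units (p = 0.00775, the smallest possible being 3.15e-05). It used all 20 libraries. Reln was chosen for it because the title of this series names the gene, so this p gives no independent support. Of 19 tested genes of reelin signalling, 9 lay below 0, and the median lay between -0.01 and 0.04 when 1 library was left out. Vldlr, a reelin receptor, was at -0.02 (SE 0.054), with -0.14 in the accumbens and 0.08 in the cortex (unadjusted p of the difference 0.0241), and Dab1 at -0.0071 (SE 0.090). Of the 27 genes named by lowest p or listed for iron and reelin, these 2, Reln and Vldlr, had an unadjusted p under 0.05 for a difference between regions, where the background over all accessions is 5.36%.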

How the data were processed

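The authors deposited read counts per RefSeq accession for each library, and the unstranded count column was used. Tools listed in the submitters' processing notes, with no role given, are DESeq, DESeq2, HTSeq, STAR and Trimmomatic 0.36.3; the build listed is rn6. Rows that name no gene (50.8 to 60.7% of reads) entered neither library sizes nor tests. Reads split evenly by strand (49.6 to 50.0% on the first), so antisense partners cannot be told apart. Symbols came from a RefSeq table of GRCr8 (17353 accessions) or the authors' deposited tables (859); 76 had none. Chromosomes without positions are from those tables. A count of 0 allows up to 3 reads (0.231 to 0.691 CPM, by library), for counting error only. No 2 libraries of a group agreed within sampling noise (lowest chi-square per degree of freedom 1.97).

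The shared effect was tested in R 4.3.3 with edgeR 4.0.16 (quasi-likelihood F test, TMM, robust dispersions, filterByExpr with a minimum count of 10, model of region and diet, Benjamini-Hochberg over 11788 accessions, threshold 0.05). Regional values used the 10 libraries of the region, and the interaction all 20. The SE was the absolute log2 fold change over the root of the F statistic. Deviations used log2 CPM with a prior count of 2. Alternatives included DESeq2 1.42.0, limma-voom 3.58.1 and sva 3.50.0. The comparison, the 36 gene lists and the rule for named genes were chosen with earlier results of these data known. The rule took the 10 lowest p in each direction, genes separate by diet in both regions, 8 iron, globin and reelin genes (Reln, Vldlr, Dab1, Tfrc, Slc40a1, Fth1, Ftl1 and Hbb), and the 2 lowest p of each list discussed; other genes were chosen after their values were seen. Some genes that the rule takes are not reported here. On simulated counts of 11788 accessions with 200 changed, edgeR recovered 43% of 1.2-fold, 82% of 1.5-fold and 97% of 2-fold changes, with 5 false calls. Each accession was simulated on its own, without shifts shared by many genes of 1 library, so these rates may not hold for the real counts.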

Additional observations from a re-analysis of the deposited data

Results flagged for a closer look

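Within groups of 5 libraries, a library was singled out when its gap to the nearest other exceeded 0.71 of the range of the group. This was so in 13 cases among 108 groups of gene levels and 12 groups of library measures; chance alone marks about 1 in 20 groups. Cortex standard replicate 4 accounted for 6 of the 13, each time as the highest of its group: Gk at 22.9 CPM (others 18.7 to 19.8), Fbn1 at 30.8 (12.02 to 13.4), Msx1 at 13.5 (5.36 to 7.39), C4b at 7.15 (2.58 to 3.05), Cd40 at 3.35 (0.891 to 1.52) and Reln at 361 (209 to 243). The same library held the highest meninges marker level, as given above. Adnp2 was low in cortex low-iron replicate 4, at 30.7 CPM against 35.8 to 37.4. Alpl was low in accumbens standard replicate 5, at 19.6 CPM against 21.7 to 22.2, and Slc40a1 was high there, at 5.99 against 3.33 to 3.97. Gamt was low in accumbens low-iron replicate 1, at 44.6 CPM against 56.4 to 58.9. C4b was low in accumbens standard replicate 4, at 1.58 CPM against 2.92 to 3.41, and in cortex low-iron replicate 1, at 1.16 against 1.91 to 2.20. Tfrc was high in accumbens low-iron replicate 5, at 214 CPM against 149 to 167.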

How the results depend on the processing

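The count of genes called for the shared effect, 1 (Gk), was 0 with RLE size factors, no filter on low counts, depth as a covariate, the replicate block, and the replicate block with regions averaged, and 0 to 1 over the 20 fits that leave out a library. It stayed 1 with DESeq2, limma-voom, the filter at 1 CPM, group means, the replicate block within diet, summing by symbol and a surrogate variable. Same-numbered libraries deviated together weakly at most (r of -0.044 to 0.136 across regions and -0.31 to 0.16 across diets). The own number gave the best match for 5 of 10 libraries across regions and 2 of 10 across diets. Numbers were not taken as pairs in the main fit, and whether the regions share rats stays unknown. Accessions with an unadjusted p under 0.05 were 838, and 1363 with depth as a covariate. Genes separate by diet in both regions were 2, and 1 (Gamt, without Tmem30a) with CPM from total reads. Over 27 named genes and 891 combinations of gene and setting, 879 kept their direction; none of the 20 genes with the lowest p reversed. Those 20 were picked for their low p in these same libraries, which makes a reversal unlikely, so this gives no independent support. The 12 reversals were near 0: Fth1 (-0.036 to 0.0037 over left-out libraries), Vldlr (-0.051 to 0.0048; 0.0074 with depth) and Dab1 (-0.052 to 0.037; 0.0201 with limma-voom and 0.0213 with the replicate block within diet). The meninges median was -0.27 without cortex standard replicate 4, and -0.27 also without both number 4 standard libraries, an alternative added after seeing the data. For genes under about 10 reads per library, counting error limits what can be seen.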
